A study of Mus musculus with 24 samples.

Results

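Transcripts of 10 AP-1 and immediate early genes were followed through 24 RNA-seq libraries of B16F10, a mouse melanoma line that makes pigment. The genes were listed by symbol, with earlier results of these data known: Fos, Fosb, Fosl1, Jun, Junb, Jund, Egr1, Ier2, Ier3 and Dusp1, 10 of the 15738 named genes of the count table. All 10 had counts, and all 10 passed the low-count filter (0.372 CPM in at least 3 libraries), which kept 13527 genes. Fosl1 passed only through the lines lacking Atg5, where 11 libraries reached that level against 0 of the other 12. The 4 lines were a control knockout that the labels call wild type, a line lacking Rnf31, a line lacking Atg5 and a line lacking both genes, here called the double knockout. Each line was given vehicle or TNFα at 2 ng/ml for 24 h, which makes 8 groups of 3 libraries labelled as biological replicates. Whether a line was 1 clone or a pool, and where each gene was cut, is not given in the sources used here. Each genotype was 1 line, so the loss of a gene and other differences between lines cannot be told apart. Separate cultures are not named for the replicates, so each p-value measures the spread between these libraries.

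AP-1 is a transcription factor made of a pair of leucine zipper proteins, in which a Jun protein joins a Fos protein or another Jun protein. Jun proteins can pair with each other, whereas Fos proteins need a partner from another family to bind DNA. The genes of AP-1, Egr1 and the Ier genes belong to the immediate early genes, whose transcription starts from factors already present when growth factors, cytokines or stress activate the MAP kinases ERK, JNK and p38. Their transcripts are mostly short-lived, and Dusp1, a member of the same class, encodes a phosphatase that switches these kinases off. TNFα activates JNK, p38 and NF-κB through its receptor, where Rnf31, the catalytic part of the linear ubiquitin ligase LUBAC, builds ubiquitin chains. Atg5 is needed for the lipidation step that forms autophagosomes.

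RefSeq promoter windows (GRCm38.p6) matched 7 of the 10 genes, namely Fos, Fosb, Jun, Junb, Jund, Ier3 and Dusp1. They were searched on both strands from 250 bases before to 50 bases after the annotated start. For some genes that start differs from the gene model given below. The 250 bases before the Jund start end at 70697738, upstream of its gene model, and those of Dusp1 lie inside its gene model. The 250 bases before the start are given for 4 genes that were higher without Atg5 and hold a match (Fosb, with few counts, is left out), 5′ to 3′ along the gene, with the matched bases in capitals.
Ier3, chr17:35821463-35821712, plus strand: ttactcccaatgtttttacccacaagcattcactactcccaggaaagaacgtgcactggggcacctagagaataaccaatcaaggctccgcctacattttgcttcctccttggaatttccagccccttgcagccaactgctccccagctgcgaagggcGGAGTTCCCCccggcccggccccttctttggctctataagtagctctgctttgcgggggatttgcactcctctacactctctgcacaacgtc
Fos, chr12:85473640-85473889, plus strand: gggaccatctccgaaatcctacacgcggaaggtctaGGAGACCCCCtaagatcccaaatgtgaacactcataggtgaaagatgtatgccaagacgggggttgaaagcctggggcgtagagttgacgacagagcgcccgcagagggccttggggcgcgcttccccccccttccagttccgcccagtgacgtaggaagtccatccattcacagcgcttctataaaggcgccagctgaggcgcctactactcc
Jun, chr4:95052223-95052472, minus strand: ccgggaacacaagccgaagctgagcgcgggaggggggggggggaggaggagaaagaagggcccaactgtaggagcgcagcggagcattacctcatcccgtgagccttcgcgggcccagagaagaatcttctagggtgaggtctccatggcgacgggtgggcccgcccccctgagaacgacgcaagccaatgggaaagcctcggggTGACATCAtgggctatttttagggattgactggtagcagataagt
Dusp1, chr17:26508473-26508722, minus strand: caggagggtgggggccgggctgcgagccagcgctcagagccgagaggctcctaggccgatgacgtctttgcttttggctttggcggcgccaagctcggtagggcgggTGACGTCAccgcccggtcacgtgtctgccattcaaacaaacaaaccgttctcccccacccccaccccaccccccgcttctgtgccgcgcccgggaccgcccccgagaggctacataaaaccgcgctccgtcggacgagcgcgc
In Ier3 the capitals mark a κB site, the kind of sequence that NF-κB binds, at bases -92 to -83 from the start (GGAGTTCCCC), and in Fos one at -214 to -205 (GGAGACCCCC). The capitals in Jun mark TGACATCA at -45 to -38 and those in Dusp1 TGACGTCA at -143 to -136, both of the pattern TGACNTCA that CREB and Jun:ATF pairs can bind. The κB pattern was found in 3 of the 7 windows, the third being that of Fosb, and in 4.51% of all 32851 promoter windows. TGACNTCA was found in 2 of the 7 windows and in 8.83% of all. The AP-1 pattern TGANTCA was found in 0 of the 7 windows and 7.81% of all, the CArG box of serum response factor in 0 and 1.63%, and the EGR pattern GCGNGGGCG in 1 (Fosb) and 5.55%. Each printed window holds 1 match, so no matches overlap there.

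Facts of the series as a whole bear on these values. The counts on named genes totalled 19425795 to 33385502 per library. Atg5 transcripts ranged from 46.2 to 61.9 CPM (counts scaled by TMM to one common library total) in the 6 control libraries and from 20.7 to 27.3 CPM in the 12 libraries of the Atg5 and double knockouts. Rnf31 ranged from 8.61 to 10.9 CPM in control libraries, 6.84 to 8.52 in the Rnf31 knockout and 6.46 to 7.38 in the double knockout. The 7 melanocyte markers summed to 17827 to 21810 CPM in the libraries of all groups. Control vehicle replicate 2 stood apart: comparing its counts with those of its replicates gave a chi-square of 30.04 and 19.0 for each degree of freedom, against 3.09 to 8.57 for every other replicate pair. Without that library, 8 of the 10 genes were still called in the Atg5 knockout and 6 in the double knockout, Egr1 being lost.

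The gene models lie on GRCm38 (GENCODE M21), and all 10 are protein-coding. Fos lies on chromosome 12 at 85473890 to 85477273, Fosb on chromosome 7 at 19302696 to 19310051, Fosl1 on chromosome 19 at 5447547 to 5455946, and Jun on chromosome 4 at 95049034 to 95052222. Junb, Jund and Ier2 lie on chromosome 8, at 84974484 to 84978718, 70698949 to 70700616 and 84661331 to 84662852. Ier3 lies on chromosome 17 at 35821684 to 35822923, Dusp1 on the same chromosome at 26505590 to 26562128, and Egr1 on chromosome 18. Jun, Junb, Jund and Ier2 each have a longest transcript of 1 exon.

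In cells without Atg5, most of the set was higher before any TNFα was given. With vehicle, 8 of the 10 genes rose in the Atg5 knockout against control, 0 fell, and Egr1 and Ier2 did not pass the test (edgeR quasi-likelihood test, Benjamini-Hochberg adjusted p under 0.05 over all genes). This contrast moved much of the transcriptome: 62% of the genes tested were called, 31.3% as higher and 30.7% as lower. Fosl1, which entered the test only through the lines lacking Atg5, is one of the 8, and of the other 9 genes 7 rose. The median log2 fold change was 1.45 over the 10 genes, Fosl1 included, and 0.01 over all genes tested. In bulk RNA, more cells holding a transcript and more transcript per cell cannot be told apart.

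Among the Fos family, Fos itself stood at 2.53, 2.60 and 2.64 CPM in control vehicle libraries and at 15.8, 18.1 and 16.1 CPM in the Atg5 knockout. The double knockout lay between them at 10.6, 12.1 and 9.56 CPM, and the Rnf31 knockout at control level with 2.38, 2.16 and 2.98 CPM. No Atg5 knockout library overlapped a library of another genotype. The log2 fold change ± SE of Fos was 2.68 ± 0.13 in the Atg5 knockout (6.43-fold, adjusted p = 3.49e-16), 2.05 ± 0.13 in the double knockout (adjusted p = 4.24e-13). Without Rnf31 alone it was -0.03 ± 0.15 (adjusted p = 0.881).

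Fosl1, which encodes the Fos relative FRA-1, had few counts in control cells. It held 0.303, 0.254 and 0.230 CPM with vehicle there and 0.948, 1.34 and 1.14 CPM in the Atg5 knockout. The summed counts were 23 and 101, a ratio of 4.31 with a 95% counting interval of 2.72 to 7.11, which covers counting error only. In the Atg5 knockout its log2 fold change was 2.10 ± 0.41 (adjusted p = 5.93e-05), but because the filter admitted Fosl1 through the libraries where it was high, its call is a description only. In the double knockout it stood at 0.371, 0.518 and 0.394 CPM, a difference from control that was not called (0.69 ± 0.45, adjusted p = 0.201). Fosl1 shares 1163 of its 2033 exonic bases with Ccdc85b on the opposite strand. Ccdc85b stood at 7.90 ± 0.401 CPM (SD, n = 3) in control and 20.5 ± 1.85 CPM in Atg5 knockout vehicle libraries, and since the strand setting is not given, the reads of these genes cannot be told apart.

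Fosb, the least abundant member per kilobase in control vehicle libraries, stood at 0.168, 0.159 and 0.230 CPM in control vehicle and 0.520, 0.536 and 0.607 CPM in Atg5 knockout vehicle libraries. Its groups did not overlap, and the 16 against 49 counts gave a ratio of 3.01 (95% counting interval 1.68 to 5.67). The test called Fosb in the Atg5 knockout (1.56 ± 0.47, adjusted p = 0.00552). Of the 8 libraries in which Fosb reached the filter's level, 5 lacked Atg5 and 3 were of the other lines. In the double knockout the value of 1.16 ± 0.49 lay at the threshold (adjusted p = 0.0506), with libraries at 0.223, 0.553 and 0.465 CPM, and ranged from 0.0215 to 0.196 in adjusted p over the alternatives that gave one.

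All 3 Jun genes rose without Atg5. Jun stood at 51.3, 48.1 and 48.5 CPM in control vehicle libraries, 127, 127 and 120 CPM in the Atg5 knockout and 83.5, 94.1 and 83.3 CPM in the double knockout. Junb, a Jun protein that can also oppose Jun at some promoters, stood at 18.2, 17.3 and 16.3 CPM, 70.8, 66.9 and 69.1 CPM, and 45.0, 43.3 and 44.4 CPM in the same order. Jund, which many cell types express at a steady level, stood at 79.9, 65.3 and 72.2 CPM, 171, 159 and 171 CPM, and 130, 148 and 124 CPM.

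Junb showed the largest change of the 3 Jun genes in the Atg5 knockout, at 2.00 ± 0.09 (3.99-fold, adjusted p = 8.13e-17), beside 1.34 ± 0.06 for Jun (adjusted p = 1.25e-16) and 1.20 ± 0.06 for Jund (adjusted p = 2.28e-15). The double knockout had 1.36 ± 0.09 for Junb, 0.82 ± 0.06 for Jun and 0.89 ± 0.06 for Jund, all 3 called. Junb shares 173 of 2301 exonic bases with Prdx2 on the opposite strand, which was lower in the Atg5 knockout (-0.24 ± 0.07). Jun shares 232 bases with the antisense gene Junos, which had 0 counts in the 3 control vehicle libraries and 33 in the Atg5 knockout. Jund shares 877 of 1668 bases with the antisense gene Gm11175, which was not analysed here.

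Ier3, also known as IEX-1, a stress-induced protein that acts on apoptosis and ERK signalling, changed the most. Control vehicle libraries held 22.8, 16.1 and 20.4 CPM and Atg5 knockout libraries 313, 316 and 297 CPM. The double knockout held 156, 162 and 138 CPM and the Rnf31 knockout 25.4, 23.2 and 22.2 CPM. Against control, Ier3 was 15.6-fold higher in the Atg5 knockout (log2 fold change 3.97 ± 0.12, adjusted p = 1.16e-20) and 7.69-fold higher in the double knockout (2.94 ± 0.12, adjusted p = 8.28e-18). Of all genes tested, 99.2% had a lower log2 fold change in the Atg5 knockout than Ier3.

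Dusp1 stood at 10.8, 12.7 and 11.4 CPM in control vehicle, 26.9, 26.3 and 25.3 CPM in Atg5 knockout and 22.1, 25.0 and 21.4 CPM in double knockout libraries. Its log2 fold changes were 1.17 ± 0.12 (adjusted p = 3.13e-09) and 0.97 ± 0.12 (adjusted p = 1.81e-07), so the phosphatase transcript rose in both lines. Dusp1 shares 11 exonic bases with Ergic1 on the opposite strand, which was lower in the Atg5 knockout (-0.24 ± 0.05).

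Ier2 and Egr1 did not follow the rest. Ier2 stood at 36.9, 34.1 and 31.5 CPM in control vehicle libraries and at 33.9, 34.7 and 31.6 CPM in the Atg5 knockout, which overlap (log2 fold change -0.03 ± 0.08, adjusted p = 0.725). Egr1, a zinc finger factor that growth factor signals induce through ERK, had 46 counts in the control vehicle libraries together (0.505, 0.317 and 0.804 CPM) and 54 in the Atg5 knockout (0.428, 0.670 and 0.759 CPM). Its log2 fold change in the Atg5 knockout was 0.20 ± 0.41 (adjusted p = 0.692), with a counting interval of 0.764 to 1.75 for the ratio of levels. In the double knockout Egr1 was called higher at 0.853, 1.002 and 1.32 CPM (0.98 ± 0.39, adjusted p = 0.0351), which no longer passed when control vehicle replicate 1 (adjusted p = 0.0825) or 2 (0.182), or replicate 2 (0.0534) or 3 (0.13) of the double knockout, was left out.

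**Figure D1:**
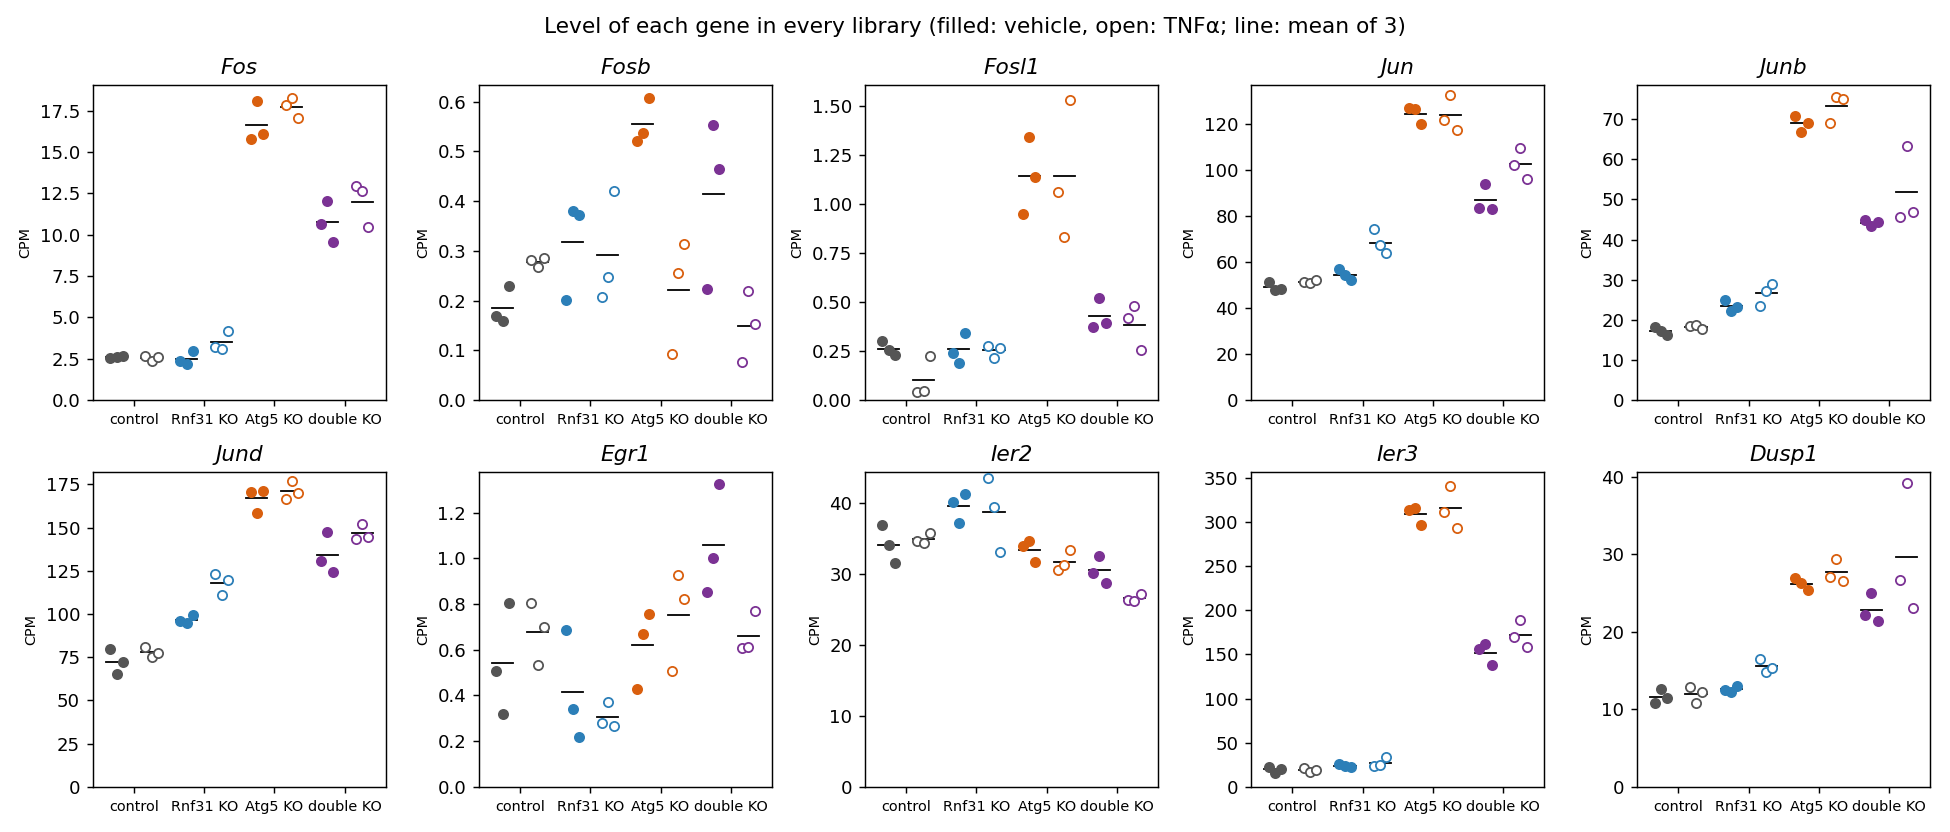
Level of each of the 10 genes in CPM on linear axes starting at 0, with 1 point per library (filled for vehicle, open for TNFα) and a line at the mean of 3. Fos, Jun, Junb, Jund and Ier3 form separate high groups in the Atg5 knockout, whereas for Dusp1 its libraries overlap with those of the double knockout. For Ier3 the Atg5 knockout vehicle libraries reach 313, 316 and 297 CPM while control vehicle libraries stay between 16.1 and 22.8 CPM.

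In all, the double knockout had 7 of the 10 genes higher than control with vehicle and 0 lower, against 52.4% of all genes called and 25.3% called higher. Fosb, Fosl1 and Ier2 were not called. Set directly against the Atg5 knockout, the double knockout had 6 genes lower and 0 higher (38.1% of all genes called, 19.8% lower). These were Ier3 (-1.02 ± 0.10, adjusted p = 4.66e-09), Fosl1 (-1.40 ± 0.38, adjusted p = 0.00443), Junb (-0.64 ± 0.08), Fos (-0.63 ± 0.11), Jun (-0.52 ± 0.06) and Jund (-0.31 ± 0.06). Fosl1 entered the test only through the lines lacking Atg5, so its place among the 6 is a description only. For Dusp1 the difference was -0.20 ± 0.12 (adjusted p = 0.193) and for Egr1 0.78 ± 0.38 (adjusted p = 0.108).

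The loss of Rnf31 alone moved fewer of these genes and by less. With vehicle, 3 of the 10 rose and 0 fell (45.6% of all genes called, 24.1% higher): Junb at 24.9, 22.1 and 23.3 CPM (0.44 ± 0.10, adjusted p = 0.000447), Jund at 96.1, 94.9 and 99.3 CPM (0.42 ± 0.06, adjusted p = 8.02e-06) and Ier2 at 40.2, 37.2 and 41.3 CPM (0.21 ± 0.08, adjusted p = 0.0235). Ier2 no longer passed when control vehicle replicate 2 (adjusted p = 0.0555) or 3 (0.132) was left out, or Rnf31 knockout vehicle replicate 1 (0.082) or 3 (0.123). Ier3 was not called at 0.25 ± 0.12 (adjusted p = 0.0997), but passed with a correction for transcript length (0.49, adjusted p = 0.00492) and without control vehicle replicate 1 (0.37, adjusted p = 0.0236). Jun, at 0.15 ± 0.06 (adjusted p = 0.0601), also passed without that library (adjusted p = 0.0406). Against the Rnf31 knockout, the double knockout had 7 genes higher and Ier2 lower (-0.37 ± 0.08, adjusted p = 0.000182), beside 48.1% of all genes called, 22.5% higher and 25.6% lower.

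The vehicle groups also allow a test of whether the double knockout differed from control by the sum of the single knockouts' log2 differences. It lay below that sum for 6 of the 10 genes and above it for 0 (40.7% of all genes called, 21.8% as lower). The departure from the sum was -1.28 ± 0.16 for Ier3 (adjusted p = 5.21e-07), -1.08 ± 0.13 for Junb, -0.73 ± 0.09 for Jund and -0.66 ± 0.09 for Jun. For Fos it was -0.60 ± 0.19 (adjusted p = 0.0132) and for Ier2 -0.34 ± 0.11 (adjusted p = 0.0121). Without Rnf31 knockout vehicle replicate 3 the calls for Fos (-0.42, adjusted p = 0.112) and Ier2 (-0.29, adjusted p = 0.0531) were lost, and that for Ier2 also without double knockout vehicle replicate 3 (adjusted p = 0.0579).

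**Figure D2:**
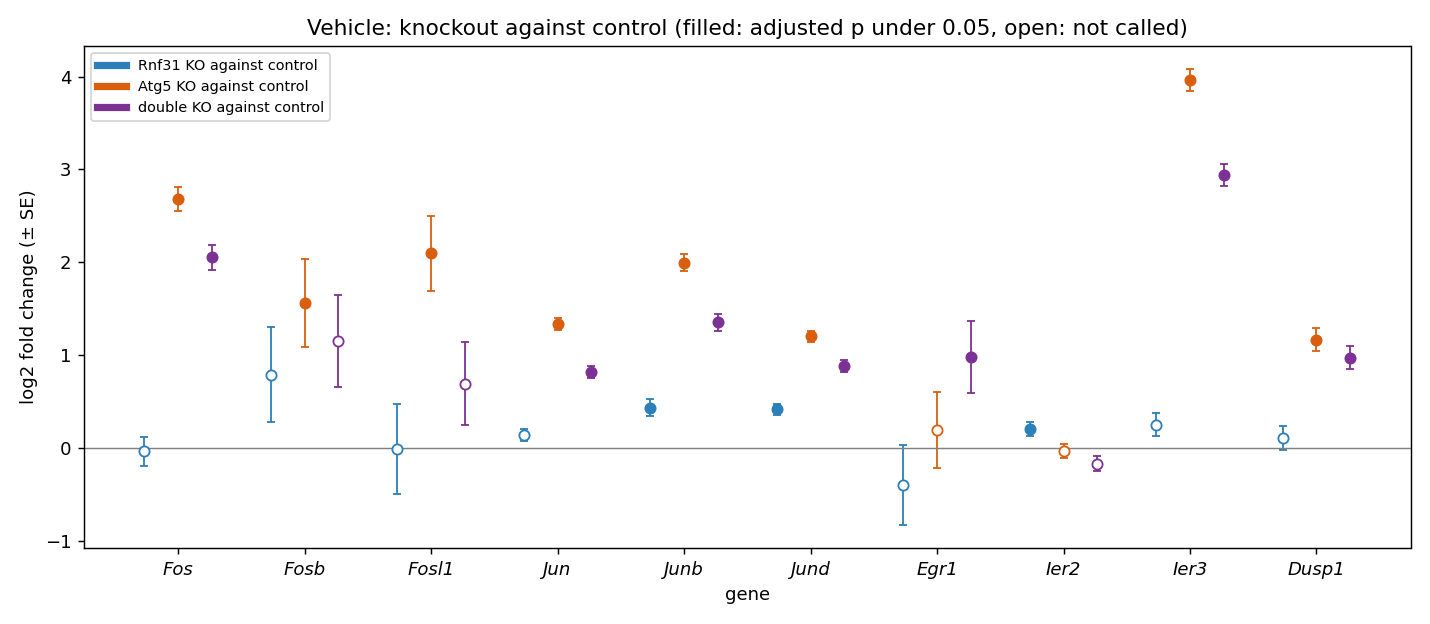
Log2 fold change against control with vehicle (vertical axis, bars ± SE) of each gene in the Rnf31, Atg5 and double knockouts, filled where the adjusted p was under 0.05. The Atg5 knockout is highest for Ier3 at 3.97, the double knockout lies below it for Ier3 at 2.94, and Ier2 lies between -0.16 and 0.21 in the 3 lines.

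Per kilobase of transcript, the order of the members changed with the loss of Atg5. In control vehicle libraries Jund led at 43.5 CPM per kb, followed by Ier2 at 22.5, Ier3 at 17.5 and Jun at 15.5, the last 2 with overlapping libraries. Junb stood at 9.55, Dusp1 at 5.85 and Fos at 1.23 CPM per kb, and Fosl1 at 0.141, Egr1 at 0.121 (overlapping with Fosl1) and Fosb at 0.0491 came last. In Atg5 knockout vehicle libraries Ier3 led at 272.8 CPM per kb, ahead of Jund at 100.05, and Jun at 39.0 overlapped with Junb at 38.1. Ier2 followed there at 22.0 CPM per kb, ahead of Dusp1 at 13.2 and Fos at 7.91. Fosl1 at 0.613 and the overlapping Fosb at 0.147 and Egr1 at 0.138 CPM per kb stayed lowest.

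Within the 6 Jun and Fos family members of the set, the make-up of the transcripts shifted toward Fos and Junb. The 6 Jun and Fos family members together summed to 69.9 ± 5.18 CPM per kb (SD, n = 3) in control vehicle, 89.5 ± 1.78 in Rnf31 knockout, 185.9 ± 4.22 in Atg5 knockout and 137.6 ± 9.33 in double knockout libraries. Jund made up 62.1% of that sum in control and 53.8% in the Atg5 knockout, Junb 13.7% and 20.5%, Jun 22.2% and 21.0%, and Fos 1.77% and 4.26%. The Jun family exceeded the Fos family 45.2 to 52.7 times per kb in control vehicle libraries and 18.2 to 22.2 times in the Atg5 knockout. It did so 23.1 to 25.7 times in double knockout and 52.3 to 70.2 times in Rnf31 knockout vehicle libraries. The libraries of the Atg5 and double knockouts thus lay below all control and Rnf31 knockout libraries, with no overlap. These shares and ratios are a description, and they omit Fosl2, a Fos family gene that was not a member. With Fosl2 counted among the Fos genes the ratio was 19.02 to 19.99 in control vehicle, 18.9 to 22.5 in Rnf31 knockout, 5.00 to 5.18 in Atg5 knockout and 6.14 to 6.74 in double knockout libraries.

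**Figure D3:**
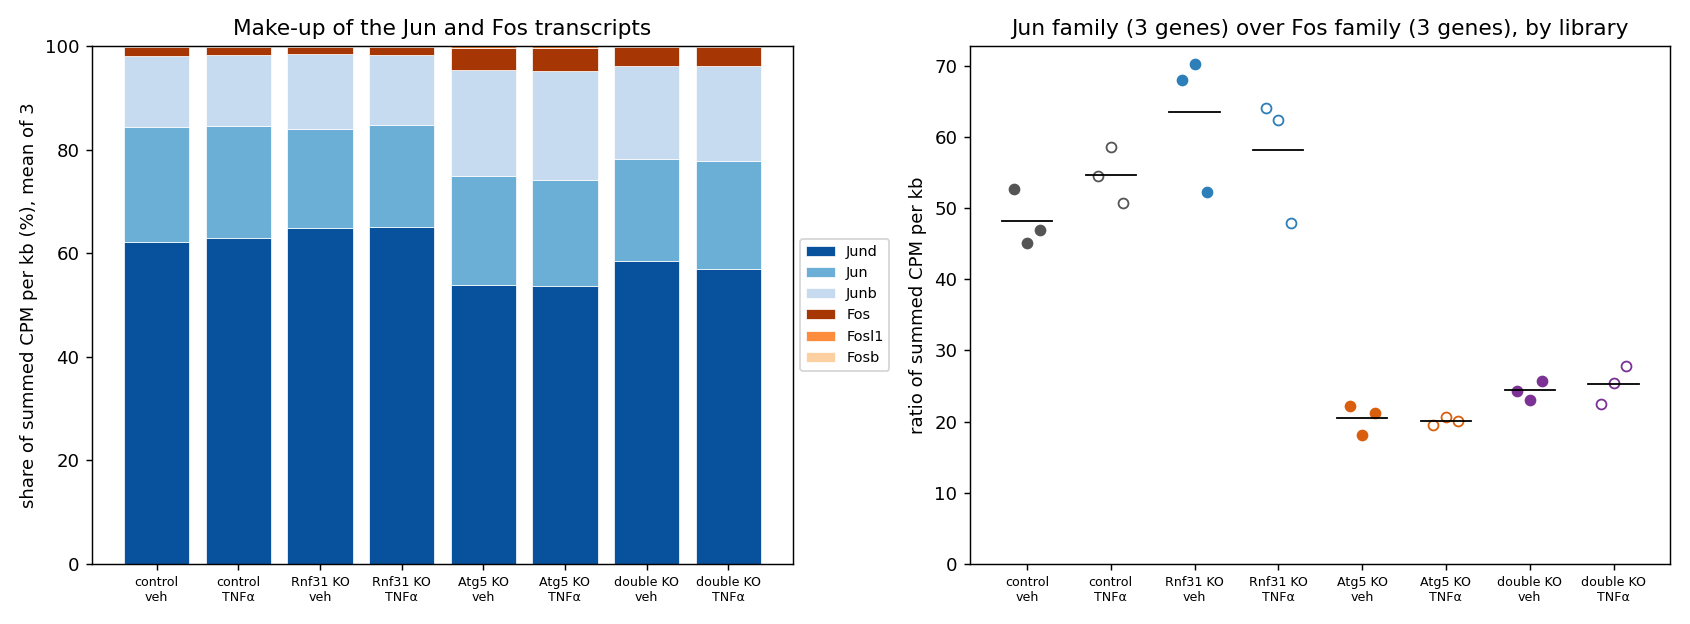
Left, mean share in percent of each Jun and Fos member in the summed CPM per kb by group (veh, vehicle). Right, ratio of the summed Jun to the summed Fos family level, 1 point per library and a line at the mean of 3: control vehicle libraries lie at 45.2 to 52.7 and Atg5 knockout vehicle libraries at 18.2 to 22.2.

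TNFα for 24 h moved few of these transcripts. In control cells 0 of the 10 genes were called by edgeR, 1 had an unadjusted p under 0.05 (Fosl1) and DESeq2 called 0, while 0.0961% of all genes were called and 21.8% had an unadjusted p under 0.05. Over the 16 comparisons DESeq2 gave no adjusted p for a member in 21 cases, and its counts of 0 do not cover those. Ier3 stood at 21.8, 16.3 and 19.6 CPM, Fos at 2.69, 2.36 and 2.61 CPM and Jun at 51.3, 51.1 and 52.1 CPM after TNFα, and in each gene the treated libraries overlapped with the vehicle ones. The log2 fold changes were -0.03 ± 0.13, -0.02 ± 0.15 and 0.06 ± 0.06. Fosl1 held 0.0402, 0.0446 and 0.223 CPM, 9 counts against 23 with vehicle (-1.20 ± 0.56, adjusted p = 0.212).

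Of a list of NF-κB subunits, inhibitors and targets, included as a check of the treatment, edgeR called 0 of 8 in control cells. Unadjusted p was under 0.05 for 3, and DESeq2 gave an adjusted p for 3 and called 1. Relb stood at 0.58 ± 0.12 (adjusted p = 0.0551) and Nfkb2 at 0.35 ± 0.09 (adjusted p = 0.0608).

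In the Rnf31 knockout TNFα raised 2 members, both Jun genes, and lowered 0, where 1.17% of all genes were called and 0.902% were higher. Jun went from 56.9, 54.5 and 52.4 CPM to 74.3, 67.3 and 64.0 CPM (0.33 ± 0.06, adjusted p = 0.00367), and Jund from 96.1, 94.9 and 99.3 CPM to 123, 111 and 120 CPM (0.29 ± 0.06, adjusted p = 0.0145). In neither gene did the treated libraries overlap with the untreated. The call for Jund was lost without any 1 of Rnf31 knockout vehicle replicates 1 or 2 or TNFα replicates 1 or 3 (adjusted p = 0.0767 to 0.0957). Fos, at 3.19, 3.09 and 4.21 CPM with TNFα, was not called (0.46 ± 0.15, adjusted p = 0.157), nor was Dusp1 at 16.5, 14.8 and 15.3 CPM (0.30 ± 0.13, adjusted p = 0.311). In the same contrast 4 of the 8 genes of the NF-κB list, 3 of 29 other immediate early genes and 2 of 12 other AP-1 genes were higher. The response of the Rnf31 knockout was not shown to differ from that of control: 0 of the 10 differences were called (0.00739% of all genes), 2 had an unadjusted p under 0.05 (Fos and Jun; 12.1% of all genes) and DESeq2 called 0. For Jun that difference was 0.27 ± 0.09 (adjusted p = 0.286).

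In the Atg5 knockout, TNFα left 0 of the 10 genes called (0% of all genes), 1 with an unadjusted p under 0.05 (13.1% of all genes) and 0 called by DESeq2. That gene was Fosb, which went from 0.520, 0.536 and 0.607 CPM to 0.0921, 0.255 and 0.314 CPM, or from 49 to 18 counts (-1.27 ± 0.47, adjusted p = 0.266). The double knockout held 35 Fosb counts with vehicle and 10 with TNFα (-1.48 ± 0.54, adjusted p = 0.401), its libraries going from 0.223, 0.553 and 0.465 CPM to 0.0757, 0.218 and 0.154 CPM. Control cells had 16 and 22 counts, the opposite order. The differences of the Fosb response from control were -1.86 ± 0.71 (adjusted p = 0.0789) and -2.07 ± 0.76 (adjusted p = 0.124) and were not called. Over the 10 genes, 0 response differences were called in the Atg5 knockout (11.4% of all genes, 6.42% lower) and 0 in the double knockout (1.15%, 0.769% lower), with 1 and 2 at an unadjusted p under 0.05 (29.4% and 20.8% of all genes) and 0 by DESeq2 in each. The called shares of all genes rest on 1536 and 156 genes and moved widely with the processing, to 177 and 3 genes with the length correction.

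In the double knockout TNFα left 0 of 10 called by edgeR (0.133% of all genes, 0.0665% higher and 0.0665% lower), although 6 had an unadjusted p under 0.05 (8.83% of all genes) and DESeq2 called 1, Jun. Jun went from 83.5, 94.1 and 83.3 CPM to 102, 110 and 96.0 CPM without overlap (0.24 ± 0.06, adjusted p = 0.133 by edgeR and 0.0377 by DESeq2). Replicate 2 with TNFα stood high for Dusp1, at 39.2 CPM beside 26.6 and 23.0, and for Junb, at 63.2 CPM beside 45.6 and 47.0. Without TNFα replicate 3 of this line, Dusp1 was called (0.52, adjusted p = 0.0313).

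**Figure D4:**
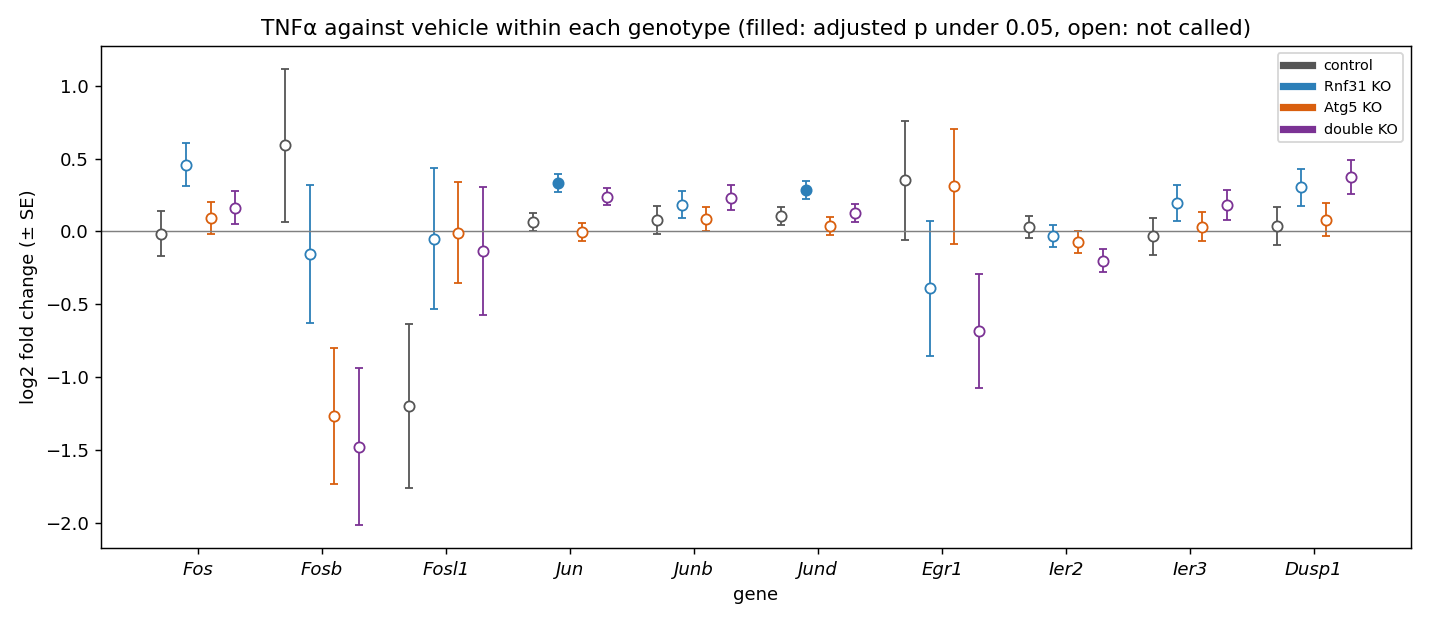
Log2 fold change of TNFα against vehicle (vertical axis, bars ± SE) for each gene in the 4 genotypes, filled where the adjusted p was under 0.05. The filled points are Jun at 0.33 and Jund at 0.29 in the Rnf31 knockout, and the low-count genes Fosb, Fosl1 and Egr1 carry the widest bars.

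The genotypes were also compared under TNFα, in libraries separate from the vehicle ones. The Atg5 knockout had 7 of the 10 genes higher than control and 0 lower (58.9% of all genes called, 29.9% higher), with Ier3 at 311, 341 and 294 CPM (4.03 ± 0.12, adjusted p = 1.29e-20) and Fos at 17.9, 18.3 and 17.1 CPM (2.79 ± 0.13, adjusted p = 2.5e-16). Fosb was not called there (-0.29 ± 0.52, adjusted p = 0.649). Fosl1, with 88 against 9 counts, gave 3.29 ± 0.48 (ratio 9.80, 95% counting interval 4.94 to 22.1). The double knockout had 7 higher and 1 lower (45.7% of all genes called, 22.6% higher and 23.1% lower), the lower gene being Ier2 at 26.3, 26.2 and 27.2 CPM against 34.7, 34.3 and 35.8 CPM in control (-0.40 ± 0.08, adjusted p = 0.000146). Its call for Fosl1 (1.76 ± 0.55, adjusted p = 0.00988) was lost without control TNFα replicate 1 (adjusted p = 0.0549) and rose to 3.07 without replicate 3, which held 0.223 CPM of Fosl1 beside 0.0402 and 0.0446. Both counts of 7 higher genes include Fosl1. It entered the test only through the lines lacking Atg5, so its calls in them are a description only.

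The Rnf31 knockout differed from control in more members with TNFα than with vehicle, though these counts were not compared by a test. It had 6 genes higher and 1 lower (32.3% of all genes called, 17.6% higher and 14.7% lower): Jund 0.60 ± 0.06 (adjusted p = 1.25e-07), Junb 0.54 ± 0.09, Ier3 0.48 ± 0.12, Fos 0.44 ± 0.15, Jun 0.41 ± 0.06 and Dusp1 0.38 ± 0.13, with Egr1 lower (-1.14 ± 0.44, adjusted p = 0.0461). The calls for Jund, Junb and Jun held without any 1 library. Those for Fos, Ier3, Dusp1 and Egr1 did not: without Rnf31 knockout TNFα replicate 3, which held 4.21 CPM of Fos and 33.6 CPM of Ier3, their adjusted p was 0.221, 0.0882, 0.065 and 0.116. Control TNFα replicates 2 and 3 each ended the calls for Fos (adjusted p = 0.0873 and 0.0563) and Dusp1 (0.107 and 0.0528). Rnf31 knockout TNFα replicate 1 ended the call for Dusp1 (0.117). The call for Egr1 ended without control TNFα replicate 1 (0.129) or 3 (0.1) or Rnf31 knockout TNFα replicate 1 (0.111) or 2 (0.0557). Fosl1, not called at 1.14 ± 0.57 (adjusted p = 0.129), passed without control TNFα replicate 3 (2.46, adjusted p = 0.0169).

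Other genes of the pathway were read from lists chosen by function. Of 12 further AP-1 family genes, 9 rose, 2 fell and 1 was not called in the Atg5 knockout with vehicle, with a median of 0.54, in a contrast that called 31.3% of all genes higher and 30.7% lower. Fosl2, which encodes the Fos relative FRA-2, rose from 13.6 ± 1.51 to 171.4 ± 7.52 CPM (SD, n = 3; log2 fold change 3.65 ± 0.10). Atf3, a stress-induced zipper protein, rose from 7.08 ± 0.648 to 56.1 ± 4.36 CPM (2.99 ± 0.10), and the small Maf gene Maff by 2.08 ± 0.14. Jdp2, which encodes a repressor that pairs with Jun, rose by 0.79 ± 0.07. Of 29 other immediate early genes, a list that also holds Atf3 and Maff, 22 rose, 4 fell and 3 were not called (median 0.96). They include Gadd45b, a stress gene (2.28 ± 0.10), Ccn1, a secreted matrix protein (1.85 ± 0.09), and the small GTPase gene Rhob (1.17 ± 0.05).

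Genes upstream of the members moved in both directions. Of 34 kinase and factor genes, 17 rose, 9 fell and 8 were not called in the Atg5 knockout with vehicle (median 0.16). That contrast called 31.3% of all genes higher and 30.7% lower. Map3k1, a kinase above JNK, rose by 1.32 ± 0.07, Map2k1, which encodes the ERK kinase MEK1, by 0.96 ± 0.04 and Braf by 0.70 ± 0.06, while Map2k3, a p38 kinase, fell by 0.76 on the log2 scale. Of 17 feedback genes of ERK, JNK and p38, 8 rose, 7 fell and 2 were not called (median 0.04). The JNK and p38 phosphatase genes Dusp10 (2.29 ± 0.11), Dusp8 (1.72 ± 0.09) and Dusp16 (0.76 ± 0.06) rose, and Dusp4, an ERK phosphatase, fell by 0.64 on the log2 scale.

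Of 20 genes known as AP-1 targets, 14 rose, 4 fell and 2 were not called in the Atg5 knockout with vehicle (median 0.62). Over all genes tested, 31.3% were called higher and 30.7% lower. The growth factor gene Vegfa rose by 2.94 ± 0.10 and the receptor kinase gene Axl by 2.61 ± 0.07, while Hmga1, a chromatin protein, fell from 503.9 ± 38.6 to 209.8 ± 9.91 CPM (-1.26 ± 0.05). All 8 genes of the NF-κB list rose (median 1.91), among them Tnfaip3, which encodes the ubiquitin-editing enzyme A20 (4.31 ± 0.22), and Nfkbia, the inhibitor IκBα (2.54 ± 0.12). NF-κB also acts on some members, and what each pathway contributes was not tested.

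In the double knockout against control, 7 of 12 AP-1 family genes, 21 of 29 immediate early genes and 9 of 20 AP-1 targets were higher, with 1, 3 and 7 lower, beside 25.3% of all genes higher and 27.2% lower. Against the Atg5 knockout, the double knockout had 6 AP-1 family genes lower and 1 higher, 16 immediate early genes lower and 5 higher, 13 AP-1 targets lower and 4 higher, and all 8 genes of the NF-κB list lower, beside 18.2% of all genes higher and 19.8% lower. Fosl2 (-0.82 ± 0.09), Atf3 (-0.85 ± 0.08), Gadd45b (-1.43 ± 0.09) and Axl (-1.55 ± 0.07) were among them. Of the 17 feedback genes of ERK, JNK and p38, that contrast called 8 as higher and 4 as lower, Dusp10 among the latter (-1.05 ± 0.10). TNFα in control cells gave 0 calls by edgeR among the 12 AP-1 family genes and 0 among the 29 immediate early genes. In each list 1 gene had an unadjusted p under 0.05 (21.8% of all genes), and DESeq2, which gave an adjusted p for 7 and 11 of them, called 0.

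Markers of other cells and of RNA quality moved with the genotype as well, and their part in the results was not tested. In the Atg5 knockout with vehicle, 31.3% of all genes were called higher and 30.7% lower. There 5 of 7 melanocyte markers fell, 0 rose and 2 were not called. Their summed level was 17827 to 18252 CPM against 21239 to 21810 in control. Of 13 mitochondrial transcripts 9 fell and 0 rose, with summed levels of 4848 to 4983 against 5761 to 7414 CPM. Fibroblast markers, of which 3 of 5 could be measured, summed to 7.84 to 12.6 CPM against 5.97 to 7.38 CPM. They went in different directions: Col1a1 rose (1.07 ± 0.19), Col1a2 fell (-2.47 ± 0.47) and Pdgfra was not called (0.62 ± 0.28). The immune marker Cd68, the only 1 of 5 that could be measured, stood at 4.86 to 9.08 against 2.86 to 3.22 CPM. In the Rnf31 knockout with vehicle 4 of 7 melanocyte markers fell and 1 rose (19290 to 19607 CPM in sum). There 10 of 13 mitochondrial transcripts fell and 0 rose (4614 to 5027 CPM), beside 24.1% of all genes higher and 21.5% lower. In the double knockout 3 melanocyte markers fell and 2 rose (20206 to 20782 CPM). There 7 mitochondrial transcripts fell and 0 rose (4545 to 5783 CPM), beside 25.3% of all genes higher and 27.2% lower.

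Over the 24 libraries, the levels of Fos and Ier3 were the closest pair among the 8 genes whose mean log2 of CPM plus 0.5 was above 0, which leaves out Fosb and Fosl1 (Pearson r = 0.993 on that scale), followed by Jun and Junb (0.980), and Ier2 ran against Fos at -0.63. The libraries share their genotype and treatment, and once each library was set against its group mean r was 0.53 for Fos and Ier3 and 0.11 for Jun and Junb. The genes outside the set with the pattern most like Fos, out of 9628 with a mean of at least 5 CPM, were Ero1l (r = 0.994), Filip1l (0.991) and Rtn4 (0.991). Those most like Jun were Litaf (0.988), Atf3 (0.987) and Rras (0.986), and those most like Fosl1 were Edil3 (0.943), Mapk3 (0.940) and Me1 (0.938). For Egr1 the nearest were Tcn2 (0.716), Chac2 (0.713) and Got1 (0.707), well below the others. Ero1l went from 184.6 CPM in control to 1952 CPM in the Atg5 knockout and 1233 CPM in the double knockout with vehicle, and Edil3 from 3.33 to 28.5 and 6.32 CPM.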

How the data were processed

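Gene expected counts deposited by the authors were used as given: they are whole numbers with unequal totals, so rounding changed none. Tools listed in the submitters' processing notes are RSEM, STAR and DESeq2, with GRCm38 and mm10 as builds, without versions or order. No source used here gives the annotation or strand setting, so overlapping genes cannot be told apart. The unit was inferred from the values. A row with a blank name (mean 0.14% of counts) was left out.

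Groups came from the labels. edgeR 4.0.16 (R 4.3.3) was fitted to all 24 libraries with TMM scaling, filterByExpr by the 8 groups, 8 group means and the quasi-likelihood test, with Benjamini-Hochberg adjustment over 13527 genes for each of 16 comparisons (call: adjusted p under 0.05). Fold changes are log2 with SE. CPM use TMM library sizes, and correlations and pattern likeness use log2 of CPM plus 0.5. CPM per kb use the longest protein-coding GENCODE M21 transcript. Counting intervals of ratios are exact and cover counting error only. The test was checked on simulated data.

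Alternatives were RLE factors, no filter, DESeq2 1.42.0, the compared groups alone, a replicate term, a length offset (lowess over log2 length), the last pair together, and leaving out each library. Named outside genes are, per list, the 4 with the smallest adjusted p called in the Atg5 knockout with vehicle, and the 3 nearest patterns to Fos, Jun, Egr1 and Fosl1 (predicted genes skipped); 1 gene this rule names is not reported here. For the TNFα check list the closest to the threshold are named, chosen after their values were seen. Members and lists were chosen with earlier results of these data known.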

Additional observations from a re-analysis of the deposited data

Results flagged for a closer look

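In vehicle libraries the difference between lines without and with Atg5 was not the same with and without Rnf31 for 6 of the 10 genes. This was tested directly (edgeR quasi-likelihood interaction contrast, adjusted over all genes, 40.7% of which were called). The contrast compares 4 single lines, so gene loss and other differences between lines cannot be told apart. On the log2 scale the Atg5 difference was smaller without Rnf31 by -1.28 ± 0.16 for Ier3 (adjusted p = 5.21e-07) and -1.08 ± 0.13 for Junb (1.89e-07). For Jund it was smaller by -0.73 ± 0.09 (3.11e-07) and for Jun by -0.66 ± 0.09 (1e-06). The Atg5 difference was smaller by -0.60 ± 0.19 for Fos (adjusted p = 0.0132) and, for Ier2, more negative by -0.34 ± 0.11 (adjusted p = 0.0121). The calls for Fos and Ier2 were lost without Rnf31 knockout vehicle replicate 3 (adjusted p = 0.112 and 0.0531). That for Ier2 was also lost without double knockout vehicle replicate 3 (0.0579). In direct terms, Ier3 went from 19.8 to 308.5 CPM with Rnf31 intact and from 23.6 to 151.9 CPM without it. The 4 groups involved share no library with the TNFα groups, where this contrast was not run.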

How the results depend on the processing

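Over the other settings, the members' values kept their side of the threshold in 1068 cases, gained a call in 11 and lost a call in 5. DESeq2 gave no adjusted p in 21. With 1 library left out, 1163 kept their side of the threshold, 8 gained a call and 29 lost a call. No value called in the full analysis changed sign, and the sign of values called in neither run was not compared. For the TNFα response of the double knockout, the members called went from 0 to 1 with DESeq2 and to 1 with the replicate block and length correction together (Jun in both), and ranged from 0 to 1 with a library left out. With a library left out, the members called ranged from 2 to 5 for the Rnf31 knockout against control with vehicle (5 without control vehicle replicate 1), from 4 to 6 with TNFα (4 without Rnf31 knockout TNFα replicate 3) and from 1 to 2 for the TNFα response of the Rnf31 knockout. They ranged from 4 to 7 for the departure from the sum, and stayed at 8 for the Atg5 knockout against control with vehicle.

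Whether replicate numbers pair the libraries was not settled. Deviations of same-numbered libraries correlated at only -0.17 to 0.15, yet 18 of 24 libraries lay closest to their own number. That is a hint from the data and not the design. With the replicate block, Jun in the Rnf31 knockout with vehicle (0.15, adjusted p = 0.0319) and Fosb in the double knockout (1.12, adjusted p = 0.0467) were called and Egr1 in the Rnf31 knockout with TNFα was not (adjusted p = 0.0552). With block and length correction Egr1 in the double knockout was not called (0.92, adjusted p = 0.0546). With RLE factors Fosb in the double knockout was called (adjusted p = 0.0491). With the compared groups alone Egr1 in the double knockout (adjusted p = 0.0541), Ier2 in the Rnf31 knockout with vehicle (0.0565) and Fos there with TNFα (0.0862) were not. The length correction called Ier2 with TNFα in the Rnf31 knockout (0.27) and the Atg5 knockout (-0.19).

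Counts over all genes for the TNFα contrasts moved by more than 1.5 times. The control response went from 13 genes to 94 without the filter, 182 with the block, 2 with length correction, 0 with both or with the compared groups alone, and 682 with DESeq2. The Rnf31 knockout response went from 158 to 331 (compared groups alone) and 242 (DESeq2), that of the Atg5 knockout from 0 to 28 and 68, and that of the double knockout from 18 to 8 and 65, with 34 under the block and 30 with block and length. The response difference went from 1 to 11 (block), 14 (length), 25 (both) and 53 (DESeq2) for the Rnf31 knockout, and from 1536 to 177 (length), 293 (both) and 504 (groups alone) for the Atg5 knockout. For the double knockout it went from 156 to 533, 3, 21 and 5 in the order block, length, both and groups alone, and 779 with DESeq2. With a library left out these counts ranged from 0 to 2200, 72 to 123, 0 to 0 and 0 to 33 for the responses and 0 to 113, 293 to 3155 and 13 to 1773 for the differences. Depth limits Fosb, Fosl1 and Egr1, which had 9 to 101 counts per group of 3 libraries.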

Other observations

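Ier3 also varied more between replicates than genes of its level. The SD of its log2 CPM around the group means, pooled over the 8 groups, was 0.17, against a median of 0.07 for the 500 genes nearest in level, of which 99.8% varied less. Dusp1 (0.16, 95.4% of its nearest genes varied less) and Junb (0.12, 93.6%) also stood high, while Jun (0.08, 59.6%) and Fos (0.14, 29.4%) did not. In control vehicle libraries the low value of Ier3 was in replicate 2, the library that stood apart from its group, at 16.1 CPM beside 22.8 and 20.4. Per kilobase, the ratio of Ier3 to Jun was 0.945 to 1.26 in control vehicle libraries and 6.96 to 7.03 in the Atg5 knockout.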
